A study of Mus musculus with 19 samples.

Results

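The BMP and ALK1 signalling genes were described in Kupffer cells, which are liver-resident macrophages, across 19 RNA sequencing libraries. The set holds 10 genes: the receptors Acvrl1, Eng and Bmpr2, the signal transducers Smad1 and Smad4, the feedback inhibitors Smad6 and Smad7, and the target genes Id1, Id2 and Id3. They were chosen by their role in the pathway, with earlier results of these data known. By mouse symbol they were matched to 10 of 33919 gene identifiers in the deposited table. All 10 passed the filter on low values (10 or more in 6 or more libraries), which 14875 genes passed. The cells came from livers of female C57BL/6 mice and were digested with collagenase D, sorted by flow cytometry, and amplified by SMART-seq. Chow_EmKCs (n = 6) are CLEC2+ TIMD4+ cells, taken as embryo-derived, of C57BL/6 mice on chow. MCD_EmKCs (n = 6) are cells of the same gate from wild-type mice after 4 weeks on MCD diet, which lacks methionine and choline and is a common model of steatohepatitis. MCD_MoKCs (n = 7) are the CLEC2+ TIMD4- cells of MCD-fed mice, taken as monocyte-derived. All 3 groups are thus CLEC2+ cells, their origin rests on the TIMD4 gate, and no chow-fed group of TIMD4- cells is among them. Age and pooling of animals are not stated, and no label ties libraries to separate animals, so p-values measure the spread between libraries.

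BMP signalling starts when a ligand joins a type I and a type II receptor. ALK1, the product of Acvrl1, is the type I receptor for BMP9 and BMP10, ligands made in the liver largely by stellate cells, and it works with the type II receptor BMPR2 and the co-receptor endoglin, the product of Eng. The active receptor phosphorylates SMAD1 and its relatives SMAD5 and SMAD9, which enter the nucleus with SMAD4 and switch on the Id genes. Id proteins lack a DNA-binding domain and hold E proteins, a class of transcription factors, away from DNA. SMAD6 and SMAD7 are themselves induced by the pathway and inhibit it. In the liver, BMP signals from the niche of stellate and sinusoidal endothelial cells are known to help recruited cells take on and keep a Kupffer cell identity, and Id3 is a known Kupffer cell factor.

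Values are given as normalised reads, the deposited reads of a gene divided by 1 size factor per library. Total reads per library ranged from 11642240 to 30983487, with medians of 18395568.5 in Chow_EmKCs, 19390997.5 in MCD_EmKCs and 19215122 in MCD_MoKCs. Differences are log2 fold changes on log2(value + 1) from limma with their standard error (SE), and a gene passed the threshold at a Benjamini-Hochberg adjusted p under 0.05 over all 14875 genes. Some libraries stood apart. MCD_EmKCs libraries 1 and 2 had the highest Smad6 and Smad7 values of all, and library 1 the highest Smad4. MCD_MoKCs libraries 2, 5 and 7 had the highest reads of sinusoidal endothelial markers. Results that rest on these libraries are given with and without them, as alternatives chosen after the values were seen. The library numbers in the column names fall into numbers up to 33 (3, 3 and 5 libraries of the groups in the order above) and from 37 (3, 3 and 2). Values within these sets are given for part of the members' contrasts, and for other genes where a set ended a call reported here. A member contrast given without them may still differ between the sets. What the numbers record is not stated.

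Per kilobase of exon, the 10 genes had a similar order in all 3 groups, with Id3 far above the rest and Bmpr2 far below. In Chow_EmKCs the median level was 15173 normalised reads per kb for Id3, 2314 for Id2 and 1900 for Id1. The Smads and Acvrl1 followed, with medians of 636 for Smad6, 495 for Smad7, 485 for Acvrl1, 363 for Smad4 and 268 for Smad1. Eng had 96.9 and Bmpr2 9.92. Neighbours in this order whose libraries overlapped were Id2 and Id1, the run from Smad6 to Smad4, and Smad1 and Eng. In MCD_EmKCs, Id2 stood clear of Id1, with medians of 3606 and 1721 and ranges that did not overlap. In MCD_MoKCs, Eng moved up past Acvrl1 and Smad1, with a median of 373 against 210.1 for Acvrl1 and 206 for Smad1, and the ranges of these 3 neighbours overlapped.

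**Figure D1:**
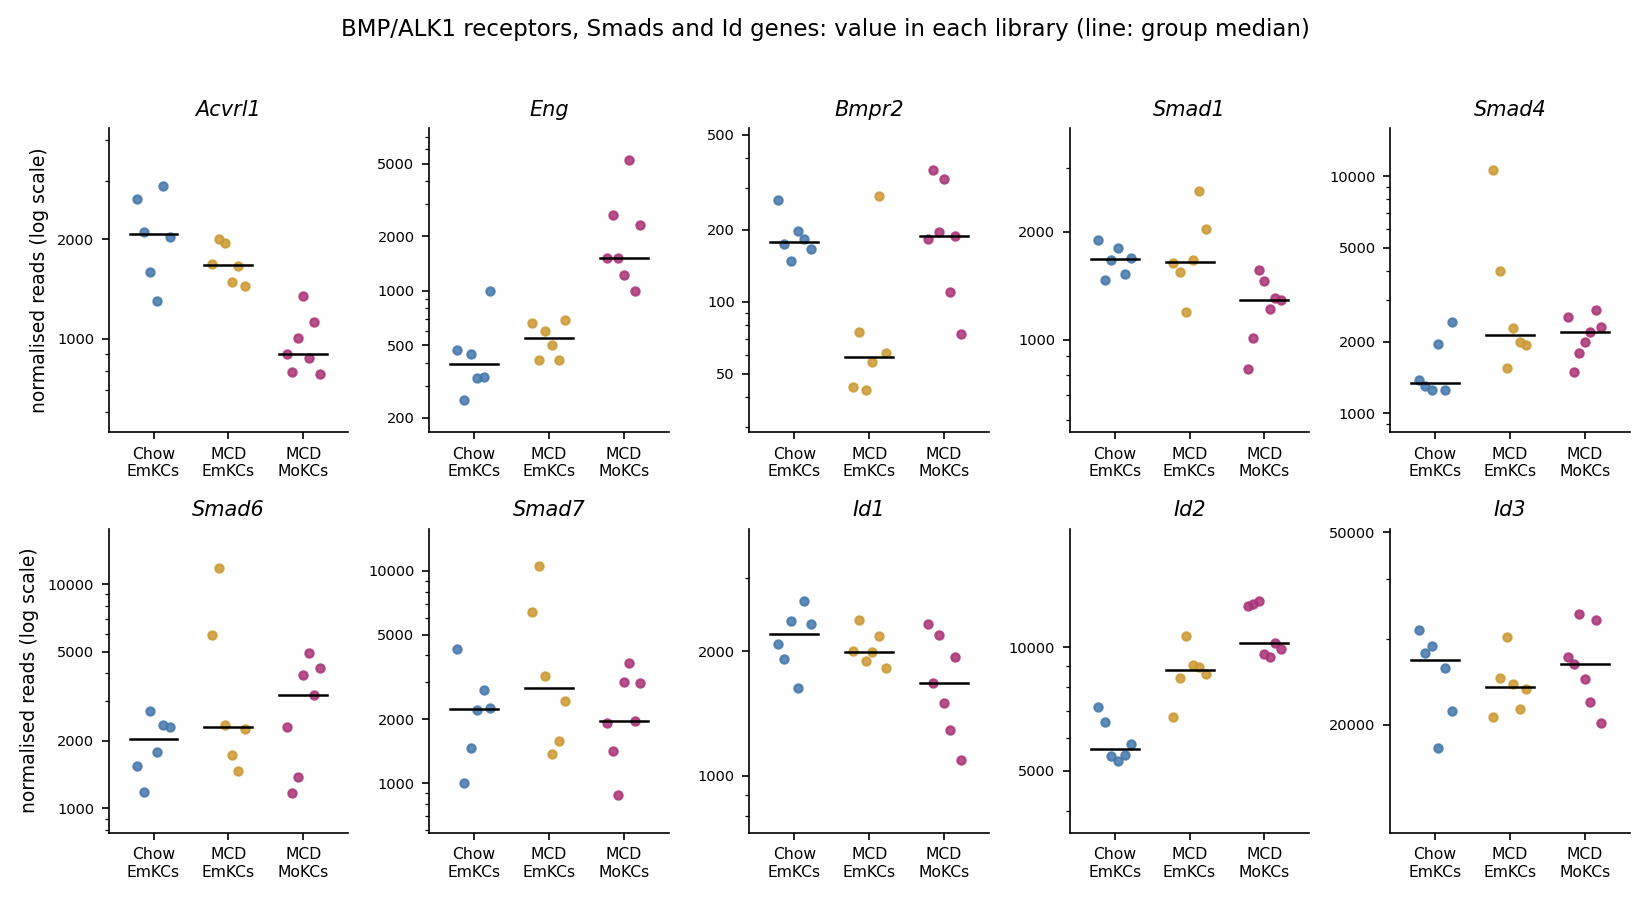
Normalised reads of the 10 genes (log axes, 1 point per library, in label order within each group, line at the group median) in Chow_EmKCs (n = 6), MCD_EmKCs (n = 6) and MCD_MoKCs (n = 7). Acvrl1 was lower and Eng higher in MCD_MoKCs than in every MCD_EmKCs library. Id2 was higher in MCD_MoKCs than in every Chow_EmKCs library but overlapped MCD_EmKCs. Smad4, Smad6 and Smad7 had 1 or 2 very high MCD_EmKCs libraries.

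Acvrl1, the ALK1 receptor gene (ENSMUSG00000000530, mm10 chromosome 15, 101128522 to 101145336), was lower in monocyte-derived cells. Its values ran from 1298 through a median of 2067 to 2893 normalised reads in Chow_EmKCs and from 1447 through 1670 to 2000.4 in MCD_EmKCs. The MCD_MoKCs ran from 782 through 896 to 1348, so every MCD_MoKCs library lay under every MCD_EmKCs library, and only the lowest Chow_EmKCs library, at 1298, fell within their range. Means ± SD were 2093 ± 604 (n = 6), 1702 ± 231 (n = 6) and 975 ± 203 (n = 7). The log2 fold change of MCD_MoKCs was -0.82 against MCD_EmKCs (SE 0.19, limma adjusted p = 0.00367) and -1.07 against Chow_EmKCs (SE 0.19, adjusted p = 0.000113). Both comparisons use the same MCD_MoKCs libraries. Between the EmKC groups the difference was -0.26 (95% interval -0.65 to 0.14, adjusted p = 0.562). Within the library number sets, the value against MCD_EmKCs was -0.95 up to 33 (adjusted p = 0.0239) and -0.70 from 37 (adjusted p = 0.293), and against Chow_EmKCs -1.10 (adjusted p = 0.00628) and -1.07 (adjusted p = 0.0475). The 3 MCD_MoKCs libraries with the most endothelial reads had the lowest Acvrl1 values, 793 in library 2, 876 in library 5 and 782 in library 7. Without them the difference from MCD_EmKCs was -0.64 and no longer passed (adjusted p = 0.0768), while that from Chow_EmKCs was -0.90 (adjusted p = 0.00571). Monocyte markers, 10 genes, summed to 1916 to 3101, 1654 to 2021 and 6927 to 12364 normalised reads in the 3 groups, and their part in the Acvrl1 difference was not tested. In these bulk libraries, fewer cells that express a gene and less RNA per cell cannot be told apart. An antisense gene, Gm16031, overlaps Acvrl1 and averaged 3.27 normalised reads, against 1558 for Acvrl1.

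Eng, the gene of the co-receptor endoglin (ENSMUSG00000026814, chromosome 2, 32646595 to 32682669), was the member with the largest difference between groups. Chow_EmKCs ran from 248.9 through a median of 392 to 1001 normalised reads, and MCD_EmKCs from 413 through 550.1 to 692. The MCD_MoKCs values were 1511, 2602, 1504, 1217, 5248, 991 and 2311 in libraries 1 to 7. All 7 lay above the highest MCD_EmKCs library, and 6 lay above the highest Chow_EmKCs library. Group means were 472 ± 272, 548 ± 123 and 2198 ± 1464. MCD_MoKCs were 1.82 higher on the log2 scale than MCD_EmKCs (SE 0.32, limma adjusted p = 0.000288) and 2.15 higher than Chow_EmKCs (SE 0.32, adjusted p = 1.7e-05), while MCD_EmKCs and Chow_EmKCs differed by 0.34 (95% interval -0.35 to 1.03, adjusted p = 0.678). Against MCD_EmKCs the value was 1.91 within library numbers up to 33 (adjusted p = 0.00765) and 1.53 from 37, where 2 MCD_MoKCs libraries remained (adjusted p = 0.116). Against Chow_EmKCs it was 2.46 (adjusted p = 0.000556) and 1.66 (adjusted p = 0.0512). Fpgs, on the opposite strand, overlaps Eng and averaged 288 normalised reads. Whether the authors' counting used strand is not given in the sources used here, so reads in the overlap cannot be assigned.

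The promoter of Eng is shown because it is the member that changed most: the 250 bases before its RefSeq start (chr2:32646345-32646594, + strand, GRCm38.p6), none of which lies in an annotated exon. None of 3 motifs was found in it, so no letter is in capitals. The motifs were GGCGCC, a BMP-responsive SMAD element first described in Id1, GTCTAGAC, the SMAD palindrome, and CACGTG, an E box, searched on both strands.
Eng: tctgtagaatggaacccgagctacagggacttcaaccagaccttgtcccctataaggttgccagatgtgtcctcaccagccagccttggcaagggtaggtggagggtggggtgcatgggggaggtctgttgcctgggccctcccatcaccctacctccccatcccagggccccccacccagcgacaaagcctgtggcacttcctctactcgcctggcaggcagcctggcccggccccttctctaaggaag

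Endoglin is abundant in sinusoidal endothelial cells, so the markers of those cells were set beside it. Of 18 such markers, Stab2, Cdh5 and Pecam1 were also abundant in the EmKC groups. The other 15 summed to between 1424 and 2324 normalised reads in Chow_EmKCs, between 2546 and 4933 in MCD_EmKCs, and to 10825, 19358 and 17368 in MCD_MoKCs libraries 2, 5 and 7, against 3817 to 5671 in the other 4. Over all 18 markers the sums ranged from 10577 to 11762, from 11566 to 12870 and from 5705 to 23111. No marker of the list was at 0 in every library. Of 17 tested markers, 5 were higher and 3 lower in MCD_MoKCs than in MCD_EmKCs, with a median log2 fold change of 0.80. Against Chow_EmKCs, 10 were higher and 3 lower, with a median of 2.19. Eng also had its 3 highest MCD_MoKCs values in libraries 2, 5 and 7, as did 11 of the 18 markers, but none of the other 9 members, and 3.68% of all tested genes (547). In the other 4 MCD_MoKCs libraries (1, 3, 4 and 6) Eng was 1511, 1504, 1217 and 991, above the MCD_EmKCs maximum of 692. Marker sums of libraries 3 and 6, at 4644 and 3817, lay within the MCD_EmKCs range, and those of libraries 1 and 4, at 4962 and 5671, lay above its maximum of 4933. All 4 sums lay above the Chow_EmKCs maximum of 2324. The part of endothelial transcripts in the Eng difference was not tested. Without libraries 2, 5 and 7, Eng remained higher by 1.26 on the log2 scale against MCD_EmKCs (SE 0.31, limma adjusted p = 0.0119) and by 1.60 against Chow_EmKCs (adjusted p = 0.000831).

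**Figure D2:**
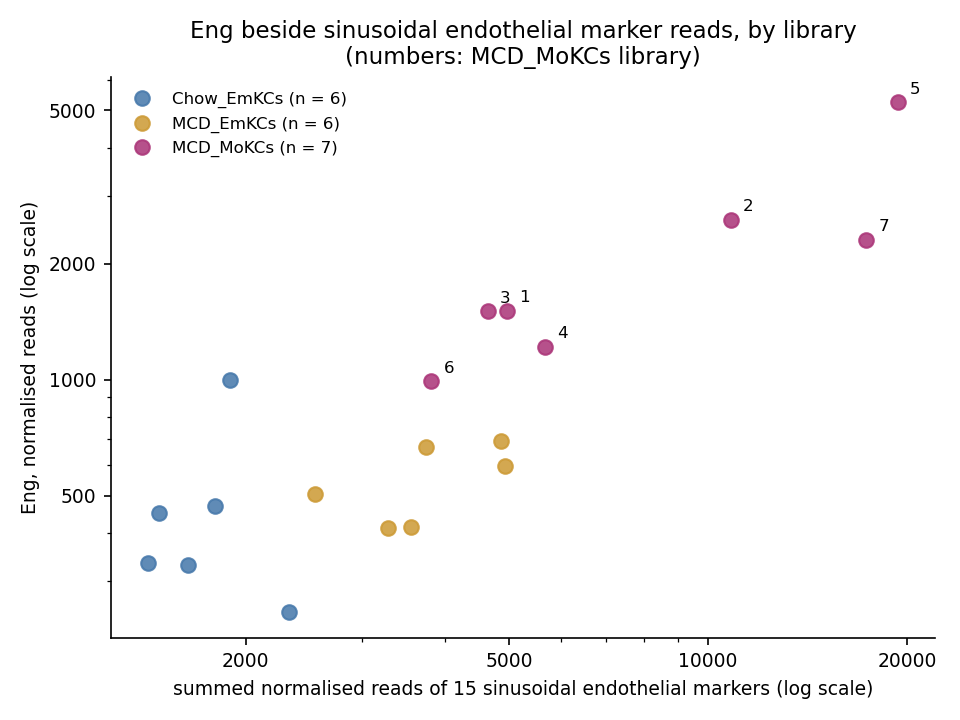
Eng (vertical, normalised reads, log axis) against the sum of 15 sinusoidal endothelial markers (horizontal, normalised reads, log axis), 1 point per library, coloured by group, with the MCD_MoKCs library numbers. MCD_MoKCs 2, 5 and 7 lie to the right, and libraries 1, 3, 4 and 6 lie above all MCD_EmKCs points, 3 and 6 within their horizontal range and 1 and 4 to the right of it.

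Bmpr2, the type II receptor gene (ENSMUSG00000067336, chromosome 1, 59763400 to 59879014), had low and variable reads. Chow_EmKCs ran from 148 through a median of 178 to 266 normalised reads. In MCD_EmKCs, 5 libraries lay between 42.6 and 75.0, under every Chow_EmKCs library, and library 5 had 278, above all of them. The MCD_MoKCs ran from 73.0 through 188 to 355. MCD_EmKCs differed from Chow_EmKCs by -1.36 (SE 0.45, limma adjusted p = 0.0919), which did not pass, and by -1.75 without library 5 (adjusted p = 0.0147). Within library numbers up to 33 this difference was -1.85 and from 37 it was -0.88, and neither passed. MCD_MoKCs were higher than MCD_EmKCs by 1.32 (SE 0.43, adjusted p = 0.0495). Within library numbers up to 33 that value was 2.02 (adjusted p = 0.0296), and from 37 it was 0.25 (adjusted p = 0.93). The call sat at the threshold: edgeR gave 1.12 (adjusted p = 0.143), DESeq2 1.14 (adjusted p = 0.0767), and leaving out single libraries ended it in 10 of 13 cases. MCD_MoKCs and Chow_EmKCs differed by -0.04 (95% interval -0.93 to 0.85, adjusted p = 0.97).

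Smad1, the receptor-activated SMAD of the BMP branch (ENSMUSG00000031681, chromosome 8, 79338395 to 79399518), ran from 1466 through 1675 to 1901 normalised reads in Chow_EmKCs. MCD_EmKCs ran from 1195 through 1648 to 2591 and MCD_MoKCs from 829.5 through 1291 to 1564. The groups overlapped. MCD_MoKCs differed by -0.51 from MCD_EmKCs (SE 0.18, limma adjusted p = 0.0691) and by -0.46 from Chow_EmKCs (SE 0.18, adjusted p = 0.0826), and neither passed. The first passed in DESeq2 (-0.52, adjusted p = 0.0435) and without MCD_EmKCs library 3 (-0.61, adjusted p = 0.0256). MCD_EmKCs and Chow_EmKCs differed by 0.05 (95% interval -0.33 to 0.43). Within the sets, MCD_MoKCs against MCD_EmKCs gave -0.29 up to 33 and -0.67 from 37, and neither passed.

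Smad4, the common partner of all receptor-activated SMADs (ENSMUSG00000024515, chromosome 18, 73639009 to 73703780), was 1249 to 2424 normalised reads in Chow_EmKCs, with a median of 1346. In MCD_EmKCs it was 10634 in library 1, 3970 in library 2 and 1557 to 2281 in the other 4, with a median of 2141. MCD_MoKCs ran from 1490 through 2202 to 2735. The group means of 1598 ± 488, 3732 ± 3484 and 2154 ± 431 differ mainly through those 2 libraries. MCD_EmKCs differed from Chow_EmKCs by 0.91 (SE 0.33, limma adjusted p = 0.144), which did not pass, and by 0.32 without libraries 1 and 2 (adjusted p = 0.56). Within library numbers up to 33 the value was 1.62 and from 37 it was 0.19, and neither passed. DESeq2, on the reads recovered from the table, gave 1.23 (adjusted p = 0.0141). MCD_MoKCs differed from MCD_EmKCs by -0.45 (adjusted p = 0.432), or by 0.13 without those 2 libraries (adjusted p = 0.791), and from Chow_EmKCs by 0.45 (adjusted p = 0.385).

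Smad6 and Smad7, the inhibitory SMADs, showed the same pair of libraries. Smad6 (ENSMUSG00000036867, chromosome 9, 63953076 to 64022059) was 5963 and 11818 normalised reads in MCD_EmKCs libraries 1 and 2, and 1462 to 2342 in the other 4. Chow_EmKCs ran from 1179 through 2037 to 2716 and MCD_MoKCs from 1166 through 3196 to 4942. Smad7 (ENSMUSG00000025880, chromosome 18, 75367529 to 75395935) was 6411 and 10568 in the same 2 libraries, and 1378 to 3187 in the other 4. Its Chow_EmKCs values ran from 1004 through 2239 to 4301 and its MCD_MoKCs values from 877 through 1972 to 3686. No contrast over all libraries passed for either gene. MCD_EmKCs differed from Chow_EmKCs by 0.72 for Smad6 (SE 0.48, limma adjusted p = 0.503) and by 0.62 for Smad7 (SE 0.49, adjusted p = 0.587), with 95% intervals from -0.28 to 1.72 and from -0.40 to 1.64. Without libraries 1 and 2 these values were 0.01 and -0.05. Within library numbers up to 33 they were 1.69 and 1.70, and from 37 -0.25 and -0.45. Against MCD_EmKCs, MCD_MoKCs differed in Smad6 by -0.23 over all libraries (95% interval -1.19 to 0.73, adjusted p = 0.827), by -1.22 within numbers up to 33 (adjusted p = 0.322) and by 1.04 from 37, which passed (adjusted p = 0.0295). In Smad7 the same contrast gave -0.66 over all libraries (limma adjusted p = 0.447), -1.64 up to 33 (adjusted p = 0.167) and 0.47 from 37 (adjusted p = 0.466). Coefficients of variation in MCD_EmKCs were 93.4% for Smad4, 94.9% for Smad6 and 84.2% for Smad7, and 3.91%, 4.1% and 5.68% of tested genes within a factor of 2 of their level varied as much. MCD_EmKCs library 1 was the high outlier of its group in 3.81% of tested genes and library 2 in 2.27%, against 1.07 to 2.06% for the other 4.

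Id2 was the member that rose with the MCD diet. Id2 (ENSMUSG00000020644, chromosome 12, 25093799 to 25097140), an inhibitor of E proteins also known from lymphoid and dendritic cells, ran from 5299 through a median of 5642 to 7171 normalised reads in Chow_EmKCs. MCD_EmKCs were at 6754, 8404, 10682, 9050, 8951 and 8632 in libraries 1 to 6, and MCD_MoKCs ran from 9460 through 10245 to 12984. In MCD_EmKCs, library 1 alone fell within the Chow_EmKCs range, and every MCD_MoKCs library lay above every Chow_EmKCs library. Group means were 5959 ± 752, 8746 ± 1263 and 11091 ± 1608. Id2 rose by 0.55 on the log2 scale in MCD_EmKCs against Chow_EmKCs (SE 0.13, 1.46-fold, limma adjusted p = 0.0125) and by 0.89 in MCD_MoKCs against Chow_EmKCs (SE 0.13, 1.86-fold, adjusted p = 6.84e-06). These 2 comparisons share the chow libraries. MCD_MoKCs against MCD_EmKCs gave 0.34 (SE 0.13, adjusted p = 0.0819), which did not pass. The first value was 0.41 within library numbers up to 33 (adjusted p = 0.411) and 0.68 from 37 (adjusted p = 0.0247), and after quantile normalization 0.45 (adjusted p = 0.153). The second was 0.84 and 0.87, and passed in both sets (adjusted p = 0.00697 and 0.00309). MCD_MoKCs libraries 1 to 3, at 12610, 12767 and 12984, stood above libraries 4 to 7, at 9460 to 10245. Without libraries 1 to 3 the second value was 0.73 (adjusted p = 0.000622), and without libraries 4 to 7 it was 1.11 (adjusted p = 3.08e-05).

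Markers of other cells were set beside Id2. Genes known to respond to cell isolation, 13 of 15 in the table, summed to 381224 to 529826 normalised reads in Chow_EmKCs, 547256 to 739754 in MCD_EmKCs and 424292 to 617471 in MCD_MoKCs, and 6 of 13 were higher and 0 lower in MCD_EmKCs than in Chow_EmKCs. The 12 hepatocyte markers summed to 4880 to 13536 in Chow_EmKCs and 793 to 3884 in MCD_EmKCs. The 12 T and NK cell markers summed to 141 to 293 in Chow_EmKCs, 224 to 525 in MCD_EmKCs and 1004 to 1517 in MCD_MoKCs, with Ncr1 at 0 in all Chow_EmKCs libraries and Trac at 0 in all MCD_EmKCs libraries. The 7 platelet and megakaryocyte markers summed to 214 to 665, 924 to 1526 and 1836 to 4722 in the 3 groups, with no overlap. The 7 neutrophil markers had median sums of 54.3, 111 and 606. The 8 dendritic markers summed to 3787 to 5459, 2912 to 4307 and 3251 to 4602. The part of these transcripts in the Id2 values was not tested.

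The stretch before the RefSeq start of Id2 is shown because Id2 is the changed target gene and its window holds 1 searched motif. That start lies within the annotated span of Id2 (25093799 to 25097140, - strand), so the stretch is not upstream of the whole gene. Of the 250 bases before the RefSeq start (chr12:25096093-25096342, - strand, GRCm38.p6), the 89 that lie outside annotated exons are printed (chr12:25096254-25096342), with GGCGCC in capitals, which begins 231 bases before the start. That motif was in 9.59% of 32851 RefSeq windows of 250 bases, GTCTAGAC in 0.167% and CACGTG in 6.02%. RefSeq windows were found for 6 of the 10 genes. Those of Id2 and Bmpr2 held GGCGCC, and those of Eng, Id3, Smad1 and Smad6 held none of the 3. The windows of Bmpr2 and Id3 had no base outside annotated exons and lay within the span of their gene. They are thus not upstream of the whole gene either.
Id2: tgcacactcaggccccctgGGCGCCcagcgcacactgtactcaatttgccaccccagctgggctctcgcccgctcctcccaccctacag

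Id1 and Id3 did not pass in any contrast. Id1 (ENSMUSG00000042745, chromosome 2, 152736251 to 152737410), the classical immediate target of BMP signalling, ran from 1629 through 2204 to 2642 normalised reads in Chow_EmKCs, from 1821 through 1996 to 2380 in MCD_EmKCs and from 1093 through 1674 to 2325 in MCD_MoKCs. The groups overlapped. MCD_EmKCs differed from Chow_EmKCs by -0.07 (95% interval -0.44 to 0.30, limma adjusted p = 0.902). MCD_MoKCs differed by -0.29 from MCD_EmKCs (adjusted p = 0.33) and by -0.36 from Chow_EmKCs (SE 0.17, adjusted p = 0.169). The last was -0.58 and passed without MCD_MoKCs libraries 1 to 3 (adjusted p = 0.0318), and was -0.06 without libraries 4 to 7 (adjusted p = 0.879) and -0.12 without libraries 2, 5 and 7 (adjusted p = 0.751). Within the library number sets it was -0.27 and -0.57, and neither passed. Among MCD_MoKCs the highest Id1 values were 2325 in library 1 and 2196 in library 3, and the lowest 1093 in library 7.

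Id3 (ENSMUSG00000007872, chromosome 4, 136143497 to 136145755) was among the abundant transcripts of all 19 libraries. It ran from 17937 through 27175 to 31354 normalised reads in Chow_EmKCs, from 20752 through 23944 to 30379 in MCD_EmKCs and from 20127 through 26702 to 33912 in MCD_MoKCs. The ranges overlapped almost wholly. Differences were -0.07 between MCD_EmKCs and Chow_EmKCs (95% interval -0.37 to 0.23), 0.14 between MCD_MoKCs and MCD_EmKCs (-0.15 to 0.43) and 0.07 between MCD_MoKCs and Chow_EmKCs (-0.22 to 0.36), with limma adjusted p of 0.876, 0.609 and 0.798. Within the library number sets, the last was -0.14 up to 33 and 0.25 from 37. The intervals leave differences beyond 0.43 on the log2 scale outside.

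**Figure D3:**
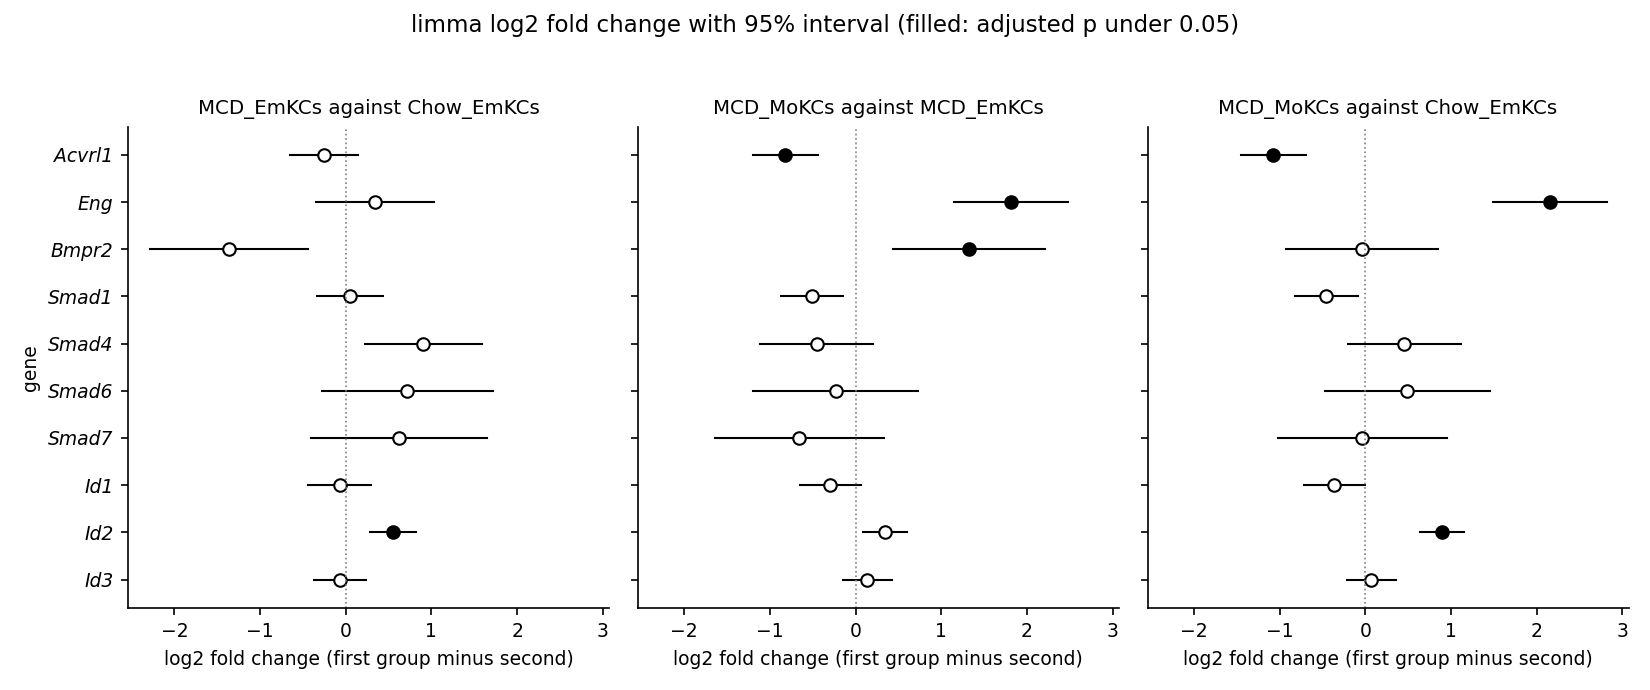
Log2 fold change (horizontal, first group minus second) of each of the 10 genes (vertical) in the 3 contrasts, with the 95% interval as a line and a filled point where the limma adjusted p was under 0.05. Eng and Acvrl1 lie on opposite sides of 0 in both contrasts of MCD_MoKCs, and Id2 is the filled point between the EmKC groups.

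Of the 10 members, 1 passed between MCD_EmKCs and Chow_EmKCs (Id2, higher), where 4.08% of all tested genes passed. In MCD_MoKCs against MCD_EmKCs, 3 passed (Eng and Bmpr2 higher, Acvrl1 lower), beside 10.5% of all tested genes. Against Chow_EmKCs, 3 passed (Eng and Id2 higher, Acvrl1 lower), beside 16.8%. Library ranges that did not overlap were found for 0, 2 (Eng above, Acvrl1 below) and 1 (Id2 above) of the 10, and for 2.96%, 4.86% and 7.97% of all tested genes. edgeR called 1, 2 and 3 members beside 3.72%, 8.91% and 14.0% of all genes, and DESeq2 2, 3 and 3 beside 6.08%, 12.4% and 17.4%. With 10 genes, 1 call is 10% of the members, so these counts are too small to show whether the members differ from the background. That was not tested. The median log2 fold change of the members was 0.19, -0.26 and 0.02 in the 3 contrasts, against -0.04, 0.02 and -0.01 over all tested genes. Without MCD_MoKCs libraries 2, 5 and 7, the 3 members called against Chow_EmKCs were called again. Against MCD_EmKCs, 2 of the 3 were called again and Acvrl1 was lost (-0.64, limma adjusted p = 0.0768).

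The other genes of the pathway were taken from lists by role, and over all tested genes 2.5%, 5.64% and 8.68% were higher and 1.58%, 4.9% and 8.08% lower in the 3 contrasts. Of 15 ligands 9 were tested. In the 3 contrasts, in the order above, 3, 4 and 7 of them were higher and 0 lower. The filter on low values bears on these counts. Inhba was at 0 in 4 of 6 libraries of each EmKC group, and in 0 of 7 MCD_MoKCs libraries. Inhbb was at 0 in 5 of 6 Chow_EmKCs libraries. Such genes were tested through the groups where they were high, so the absence of lower calls is partly set by the filter. Gdf15, a distant family member induced by cell stress, was at 582 ± 77.3 (Chow_EmKCs), 5949 ± 394 (MCD_EmKCs) and 16182 ± 1529 normalised reads (MCD_MoKCs), with no overlap between groups. Gdf3 averaged 57.6 ± 39.1, 41.98 ± 28.3 and 722 ± 169, and rose by 4.28 in MCD_MoKCs against MCD_EmKCs (SE 0.45, limma adjusted p = 1.86e-07). Bmp2, a ligand known from sinusoidal endothelial cells, had means of 191 ± 114, 529 ± 175 and 1417 ± 768. It rose by 1.62 in MCD_EmKCs against Chow_EmKCs (SE 0.39, adjusted p = 0.0154), a call lost within both library number sets (1.38, adjusted p = 0.267, and 1.86, adjusted p = 0.0865). It rose by 1.28 in MCD_MoKCs against MCD_EmKCs (SE 0.38, adjusted p = 0.0288). That call was also lost within both sets (1.44, adjusted p = 0.0968, and 0.92, adjusted p = 0.502). The second value was 0.72 (adjusted p = 0.352) without MCD_MoKCs libraries 2, 5 and 7 and 1.15 (adjusted p = 0.118) without MCD_EmKCs libraries 1 and 2. In those 3 MCD_MoKCs libraries Bmp2 was 1514, 2630 and 2183. Bmp6, another endothelial ligand, averaged 123 ± 83.7, 272 ± 137 and 616 ± 486, and rose against Chow_EmKCs in MCD_MoKCs (2.27, SE 0.48, adjusted p = 0.00117), or by 1.72 within numbers up to 33 (adjusted p = 0.0872). Gdf2, which encodes BMP9, had few reads, with 8 of 19 libraries at 0 and group maxima of 42.1, 70.4 and 80.7. Bmp10 was among the 6 ligands not tested.

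Among 15 further receptors and co-receptors, 11 were tested and 0, 1 and 3 were higher and 0, 1 and 1 lower. Bmpr1a, the ALK3 receptor, was at 373 ± 161, 368 ± 206 and 83.4 ± 74.0 normalised reads in the 3 groups, and fell by 2.26 on the log2 scale between the last 2 (SE 0.60, limma adjusted p = 0.0151). Within library numbers up to 33 that value was -1.15 (adjusted p = 0.512). Bambi, a decoy receptor that dampens the pathway, rose from 266 ± 86.6 to 536 ± 153 (1.01, SE 0.28, adjusted p = 0.0202), or by 0.84 without MCD_EmKCs libraries 1 and 2 (adjusted p = 0.109). That call was lost within both sets (adjusted p = 0.099 and 0.402). Tgfbr1, the type I TGF-beta receptor, was 871 ± 257, 1440 ± 442 and 2051 ± 134 and passed between MCD_MoKCs and Chow_EmKCs (1.28, SE 0.20, adjusted p = 3.53e-05). All 9 further signal transducers were tested, with 0, 1 and 2 higher and 0, 1 and 1 lower. Smad9 had no read in any of the 7 MCD_MoKCs libraries, where 3 reads per library would be 1.73 to 4.99 normalised reads, against 2.48 to 81.6 in Chow_EmKCs and 0 to 148 in MCD_EmKCs. The Chow_EmKCs mean was thus at least 8.42-fold higher. Smad9 passed the filter on low values only through the EmKC groups, so its calls in MCD_MoKCs could only be lower. It gave the only lower calls of this list, and their direction was thus set by the filter. The call against MCD_EmKCs was lost in 10 of 13 fits that left out 1 library, in both library number sets (limma adjusted p = 0.0883 and 0.492) and without MCD_EmKCs libraries 1 and 2 (adjusted p = 0.365). The call against Chow_EmKCs was lost within library numbers up to 33 (-2.62, limma adjusted p = 0.4). It was also lost without MCD_MoKCs libraries 1 to 3 (adjusted p = 0.0512) and without libraries 4 to 7 (adjusted p = 0.0804). Without MCD_MoKCs libraries 2, 5 and 7 both calls were lost (adjusted p = 0.123 and 0.0563), although all libraries left in that group were likewise at 0. Smad2, of the TGF-beta branch, was 879 ± 136, 1141 ± 228 and 1404 ± 303 and passed between MCD_MoKCs and Chow_EmKCs (0.67, adjusted p = 0.00935), but in neither library number set (0.56, adjusted p = 0.218, and 0.78, adjusted p = 0.129).

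Of 24 inhibitors and modulators, 15 were tested, with 0, 2 and 3 higher and 0 lower in each contrast. Fkbp1a, which encodes a protein that keeps type I receptors inactive, rose from 1201 ± 184 in MCD_EmKCs to 1940 ± 166 in MCD_MoKCs (0.70, SE 0.16, limma adjusted p = 0.00334). Ltbp3, a binding protein of latent TGF-beta, rose from 238 ± 107 to 876 ± 197 (1.97, SE 0.27, adjusted p = 8.76e-06). Tgif1, a nuclear corepressor of SMADs, passed between MCD_MoKCs and Chow_EmKCs (0.78, SE 0.14, adjusted p = 0.000193). The Fkbp1a call was lost within both library number sets (0.74, adjusted p = 0.0607, and 0.65, adjusted p = 0.225). In these 3 genes, MCD_MoKCs did not overlap the groups named. Targets other than the Id genes went both ways: of 13 tested from a list of 16, 2, 4 and 5 were higher and 0, 3 and 1 lower. Runx1 rose from 1216 ± 212 to 2283 ± 526.2 with the diet (0.89, SE 0.19, adjusted p = 0.00433), or by 0.71 without MCD_EmKCs libraries 1 and 2 (adjusted p = 0.0552), where 0 of 13 targets passed. Within the sets it was 0.99 (adjusted p = 0.105) and 0.80 (adjusted p = 0.0673). Tgfbi, a matrix protein induced by TGF-beta, rose from 4811 ± 414 in MCD_EmKCs to 6865 ± 755 in MCD_MoKCs (0.51, adjusted p = 0.00451), or by 0.42 from 37 (adjusted p = 0.335). Hes1 fell from 2895 ± 426 to 1499 ± 308 between the same groups (-0.97, adjusted p = 0.000164), as did Klf10, an early TGF-beta gene, from 2365 ± 410 to 1549 ± 232 (-0.61, adjusted p = 0.0072). The Klf10 call was lost within both sets (-0.69, adjusted p = 0.0682, and -0.39, adjusted p = 0.464).

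**Figure D4:**
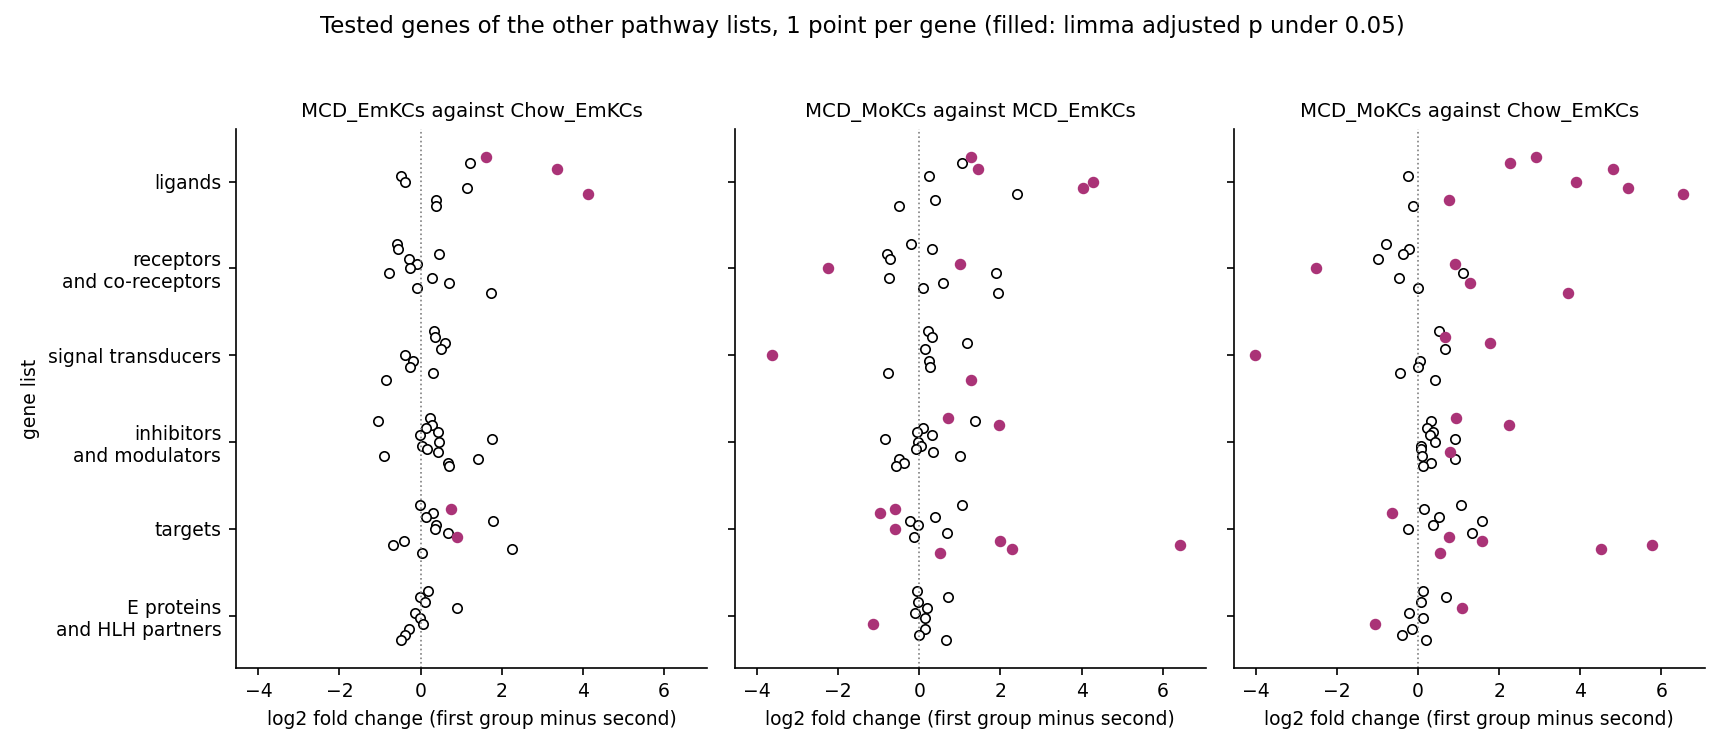
Log2 fold change (horizontal, first group minus second) of each tested gene of 6 lists (vertical) in the 3 contrasts, filled where the limma adjusted p was under 0.05. Filled ligand points lie to the right of 0 in all 3 contrasts, while the filled points of the targets lie on both sides in the contrasts of MCD_MoKCs.

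E proteins and other partners that Id proteins bind, 10 genes all tested, gave 0, 0 and 1 higher and 0, 1 and 1 lower. Tcf3, which encodes the E proteins E12 and E47, was 2848 ± 743 (Chow_EmKCs), 2991 ± 779 (MCD_EmKCs) and 1373 ± 417 normalised reads (MCD_MoKCs), and every MCD_MoKCs library lay under both other groups. It fell by 1.14 against MCD_EmKCs (SE 0.21, limma adjusted p = 0.000398) and by 1.08 against Chow_EmKCs (adjusted p = 0.000426), the second lost up to 33 (-0.88, adjusted p = 0.0587). Of 20 Kupffer cell identity genes, 1 was higher and 3 lower in MCD_EmKCs against Chow_EmKCs, 18 were lower in MCD_MoKCs against MCD_EmKCs and 16 against Chow_EmKCs, with 0 higher in both. Nr1h3, the LXR-alpha gene, was 13671 ± 1642, 8361 ± 572 and 6808 ± 709, and fell with the diet (-0.70, SE 0.11, adjusted p = 0.000263), or by -0.71 up to 33 (adjusted p = 0.0534). Spic, a transcription factor of red pulp and Kupffer macrophages, fell from 5098 ± 706 to 2655 ± 632 between MCD_EmKCs and MCD_MoKCs (-0.96, adjusted p = 0.000456), or by -0.48 from 37 (adjusted p = 0.268). The list holds Timd4 and Clec1b, on which the cells were gated, and Timd4 was 7491 ± 720 in MCD_EmKCs and 400.2 ± 161 in MCD_MoKCs. Acvrl1 was lower in both contrasts of MCD_MoKCs, as were most genes of this list, and Eng was higher in both. Bmpr2 was higher against MCD_EmKCs only and Id2 against Chow_EmKCs only, and Id3 did not pass. A link between the members and this list was not tested.

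The genes most like 3 members over the 19 libraries were found by Pearson's r of log2(value + 1) among 9432 genes with a mean of at least 100 (predicted genes left out), as a description with no test, since the points share groups, libraries and size factors. Those most like Acvrl1 were Cfp, which encodes properdin (r = 0.91), Ckb, a creatine kinase (0.89) and Siglece, an inhibitory sialic acid receptor (0.88). After group means were removed their r was 0.71, 0.55 and 0.46. Cfp averaged 53136, 51440 and 20498 normalised reads in the 3 groups, in the order above. The closest to Id1 were Batf3, a transcription factor of dendritic cells (0.85), Cnbd2 (0.83) and the complement gene C1qc (0.81), with 0.83, 0.80 and 0.74 after group means were removed. For Id3 they were Ssu72 (0.83), Ormdl2 (0.82) and Cst3, the cystatin C gene (0.82), with 0.86, 0.81 and 0.86.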

How the data were processed

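RNA of 19 libraries of sorted Kupffer cells was sequenced. The authors deposited 1 table of normalised read signal for 33919 identifiers, of which 29062 matched a symbol. Per the submitters' processing notes, STAR, DESeq2 and the build mm10 were used; the counting tool is not given in the sources used here. In every library 100% of the deposited values were whole multiples of 1 step, within 0.001 reads, so reads could be recovered for count tests. The deposited signal was tested with limma 3.58.1 (R 4.3.3) on log2(value + 1), mean-variance trend, robust, with all 19 libraries in 1 model, 3 contrasts, two-sided. The 14875 genes at 10 or more in 6 or more libraries were tested, adjusted by Benjamini-Hochberg at 0.05. The script was tested on simulated data.

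Alternatives were edgeR 4.0.16 and DESeq2 1.42.0 on recovered reads, pseudocounts of 0.5 and 5, no filter, quantile normalization, 2-group fits, a replicate block, library number sets and left-out libraries. Reads carry no molecular identifiers, so floors cover counting error only, and the spread between libraries was used otherwise. Members and lists were chosen with earlier results of these data known. All members were named; of the other lists, genes past the threshold and up to 3 others a list; markers where at 0 or high; and the 3 genes, predicted genes left out, most like each of Acvrl1, Id1 and Id3. Lrrc32, Hspa1a and Hspa1b are not analysed here. Gene positions are from GENCODE vM21 and promoter sequences from RefSeq (GRCm38.p6).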

Additional observations from a re-analysis of the deposited data

Results flagged for a closer look

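In groups of 6 or 7 libraries, 8 of 93 gene and group pairs had 1 library that stood apart. Its gap to the nearest other exceeded Dixon's 95% critical value, which chance passes about 1 time in 20 for normally distributed values. The values here were not log-transformed. Over all 14875 tested genes, each library alone was such a high outlier in 0.928 to 3.81% of genes. That share is for 1 library, whereas a pair counts any library of its group, so it is not a like measure. Whether the 8 pairs are an excess was not tested, and they are not read as such. Among the members these were Eng in Chow_EmKCs library 6 (1001 normalised reads, the other 5 at 248.9 to 469) and in MCD_MoKCs library 5 (5248, the other 6 at 991 to 2602), Bmpr2 in MCD_EmKCs library 5 (278, the other 5 at 42.6 to 75.0) and Smad4 in MCD_EmKCs library 1 (10634, the other 5 at 1557 to 3970). Other genes were Gdf15 in MCD_MoKCs library 5 (19254), Tcf3 in Chow_EmKCs library 5 (4268), Timd4 in MCD_MoKCs library 2 (743) and Cdh5, an identity gene of Kupffer cells that endothelial cells also express, in MCD_MoKCs library 1 (799.5).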

How the results depend on the processing

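Of 790 alternative values for the 10 members in 3 contrasts, 721 kept their direction and side of the threshold. Of the others, 25 lost the call, 8 gained a call with the same sign and 36 changed sign. Smad6 in MCD_MoKCs against MCD_EmKCs from 37 is among the 36, and it also passed (1.04, limma adjusted p = 0.0295). For 39 results on other genes, 978 of 1056 values were the same and 78 lost the call. Leaving out single libraries, the genes called numbered 468 to 602, 1288 to 1596 and 2193 to 2456, and the members called 1 to 2, 2 to 4 and 3 to 3. Values that changed sign there ranged from -0.067 to 0.16 for Smad1 (MCD_EmKCs against Chow_EmKCs), from -0.45 to 0.15 for Smad6 (MCD_MoKCs against MCD_EmKCs), and, in MCD_MoKCs against Chow_EmKCs, from -0.20 to 0.18 for Bmpr2, -0.25 to 0.17 for Smad7 and -0.027 to 0.14 for Id3. None of these was called.

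MCD_EmKCs against Chow_EmKCs gave 179 genes and 0 members within library numbers up to 33, where Smad1 was -0.21, and 263 genes from 37, where Smad6 was -0.25, Smad7 -0.45 and Id3 0.10. It gave 2 members in DESeq2 and 0 after quantile normalization, where Smad1 was -0.040. Without MCD_EmKCs 1 and 2, Smad7 was -0.051. MCD_MoKCs against MCD_EmKCs gave 870 genes up to 33, and 565 genes and 1 member (Smad6) from 37, where Smad4 was 0.28, Smad6 1.04 (limma adjusted p = 0.0295) and Smad7 0.47. It gave 1010 genes without MCD_MoKCs 1 to 3 (Smad6 0.36) and 989 without MCD_MoKCs 2, 5 and 7. Without MCD_EmKCs 1 and 2, Smad4 was 0.13, Smad6 0.48 and Smad7 0.018, and without MCD_MoKCs 4 to 7, Id1 was 0.0056. MCD_MoKCs against Chow_EmKCs gave 1257 genes up to 33 (Bmpr2 0.17, Smad7 0.058, Id3 -0.14) and 1288 from 37 (Smad7 0.018). Bmpr2 was 0.10 in edgeR, 0.11 in DESeq2, 0.33 without MCD_MoKCs 4 to 7 (Smad6 -0.30) and 0.22 without 2, 5 and 7. Without MCD_MoKCs 1 to 3, Smad7 was 0.43 and Id3 -0.035. The sets and left-out groups have fewer libraries, and the cause of the other changes was not tested.

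Replicate numbers did not pair the samples: after group means were removed, same-numbered libraries correlated at -0.0743 to 0.0759 over the tested genes. With a replicate block, 603, 1663 and 2479 genes were called, Bmpr2 in MCD_MoKCs against Chow_EmKCs was 0.18, no member's call changed, and among the other named genes Bmp2 and Smad9 lost their call against MCD_EmKCs (limma adjusted p = 0.0724 and 0.0706).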
